A study of Rattus norvegicus with 192 samples.

Results

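The olfactory bulb of rats 1 h after inhaled phosphine (PH3) was compared with the bulb 1 h after air. The samples were taken by their titles: 4 arrays of PH3 and 5 arrays of Air at 1 h, which is 9 of the 192 arrays of the series. The animals were adult male Sprague-Dawley rats in a whole-body chamber. PH3 rats received 660 ppm for 25 min, a product of 16500 ppm × min or 0.71 times the median lethal product, and Air rats received 0 ppm for 25 min. Each array came from a different animal, numbered Rat482, Rat483, Rat506 and Rat508 for PH3 and Rat472, Rat484, Rat485, Rat507 and Rat509 for Air. None of the 9 rats gave another array, and both groups shared the ketamine and xylazine killing and the RNA preparation. The bulb was taken whole, so fewer cells of a type and less RNA per cell cannot be told apart in any value below.

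Phosphine, a gas used against grain pests, poisons mitochondria at cytochrome c oxidase. The olfactory bulb is the first relay of smell. Axons of sensory neurons in the nose end on its mitral and tufted cells, whose output is shaped by inhibitory granule and periglomerular cells, and ensheathing glia wrap the incoming axons. Stress and injury act on brain tissue through several fast routes, among them the neuronal immediate early genes, the glucocorticoid receptor, which turns adrenal steroid hormone into transcription, and the hypoxia, metal and unfolded-protein responses.

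All 7 mitral and tufted cell markers and all 11 granule cell and interneuron markers averaged higher in the bulb than in brain stem, as did 5 of 9 periglomerular and dopaminergic markers, and all 9 brain stem neuron markers averaged lower. The separation was small for some of them: Tbr1, a mitral cell factor, averaged 3.33 in the bulb against 3.06, and Slc6a2, a brain stem neuron marker, 3.10 against 3.24. Slc17a6, a glutamate transporter of brain stem neurons, was bright in both tissues, at 9.05 in the bulb against 11.10. The mitral and tufted cell gene Cdhr1 averaged 11.83 on the log2 scale in the bulb against 4.31 in brain stem. Dlx5, a transcription factor of bulb interneurons, averaged 8.36 in the bulb against 3.14 in brain stem. Slc5a7, the choline transporter of brain stem motor neurons, averaged 3.58 in the bulb against 8.60 in brain stem.

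Several of the 9 arrays were high in genes typical of tissues other than the bulb, which were picked out after their values were seen. The bone matrix gene Ibsp read 8.20 in PH3 Rat508 and 7.48 in PH3 Rat483, and between 2.73 and 3.41 in the other 7 arrays. Bglap (osteocalcin) read 9.79 in Rat508 and 8.65 in Rat483, against 3.67 to 5.30 elsewhere. Both of these PH3 arrays were therefore high in bone transcripts and no Air array was. The olfactory mucosa gene Cyp2g1, a cytochrome P450 of the nose, was high in arrays of both groups, at 9.58 in PH3 Rat508, 8.31 in PH3 Rat483, 8.36 in Air Rat472 and 8.15 in Air Rat484, against 4.51 to 6.45 in the other 5. Growth hormone, Gh1, a pituitary gene, read 13.65 in Air Rat485 and between 3.47 and 4.55 in the other 8 arrays, and prolactin, Prl, read 12.64 there against at most 3.36. PH3 Rat508 had the lowest median correlation with the other bulb arrays of the 1 h groups, and 284 of 13438 genes were higher in it than in all other 1 h arrays by more than 1 on the log2 scale. Where these arrays moved a count, a median or a difference most, its value is also given without Rat508 or without all of Rat483, Rat508 and Rat485, which leaves 2 PH3 and 4 Air arrays. The smaller set still holds Air Rat472 and Rat484, which were high in Cyp2g1, but neither PH3 array that was. The part of these tissues in any difference was not tested.

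**Figure D1:**
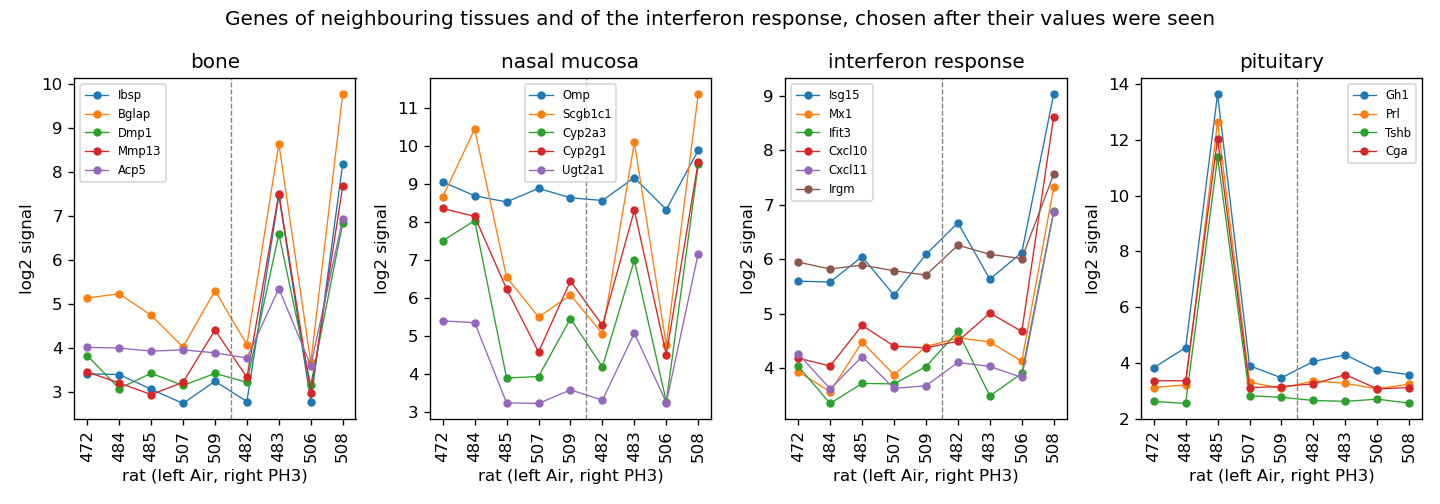
Log2 signal of genes of bone, nasal mucosa, the interferon response and pituitary in each rat (x axis, Air left of the dashed line, PH3 right), 1 line per gene. Bone genes are high in PH3 Rat483 and Rat508, interferon genes in PH3 Rat508, and pituitary genes in Air Rat485.

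Few differences between PH3 and Air passed a test across the whole array. Of 31042 probe sets, 1 passed an adjusted p of 0.05 (limma, Benjamini-Hochberg), which is 0.00322% called. At an unadjusted p of 0.05 the number was 1599, or 5.15%, and at an unadjusted p of 0.01 it was 301, or 0.97%. The log2 difference was positive in 6664 of 13438 genes (49.6%), its median was -0.00128 and the median of its size was 0.0751. The 95% interval lay within a factor of 2 in either direction for 12925 genes (96.2%). By point estimate 20 genes differed by more than 1 in size, none at an adjusted p under 0.05. Among them were the bone genes Ibsp and Bglap and the pituitary genes Gh1 and Prl named above. Rat508 was the highest PH3 array in 12 of the 20. The fit without Rat508, which kept Rat483 and Rat485, also had 12 genes above 1 in size.

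The called probe set, 1386308_PM_at, carries no gene name in the annotation and is dim, with only 6.94% of probe sets dimmer in the bulb. It read 2.81, 2.76, 2.70, 2.83 and 2.79 in Air Rat472, Rat484, Rat485, Rat507 and Rat509, and 3.18, 3.21, 2.95 and 3.14 in PH3 Rat482, Rat483, Rat506 and Rat508. Values of other genes are given in the same order of rats. Every PH3 array lay above every Air array, and the difference was 0.34 ± 0.06 (SE; adjusted p = 0.047). The call did not hold in the fit of the 1 h groups alone (adjusted p = 0.998), with rat number range as a block (adjusted p = 0.0559) or without Rat508 (adjusted p = 0.329). Of the 9 fits that left out 1 rat, it held in 1, the fit without PH3 Rat506.

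The named gene with the smallest p was Angptl4, a secreted inhibitor of lipoprotein lipase that glucocorticoid, fasting and low oxygen raise. It read 7.46, 6.44, 6.64, 5.72 and 6.75 in the Air rats and 7.73, 8.29, 7.08 and 8.0 in the PH3 rats. Only PH3 Rat506 lay inside the Air range, below Air Rat472. The difference was 1.17 ± 0.24 (SE; 95% interval 0.69 to 1.66; limma adjusted p = 0.425). It passed without Air Rat472 (1.39, adjusted p = 0.0219) and without PH3 Rat506 (1.41, adjusted p = 0.0243), and was 0.81 without Rat483, Rat508 and Rat485. The rats fell into ranges of numbers, which both groups span: the difference was 1.16 within Rat472 to Rat491 and 1.31 within Rat502 to Rat526. The gene Dusp8, a phosphatase that acts on JNK and p38 kinases, had the next smallest p and was chosen after its values were seen. It read 6.57, 6.73, 6.79, 7.21 and 6.98 in the Air rats and 6.13, 6.09, 6.70 and 6.14 in the PH3 rats, with a difference of -0.59 ± 0.12 (SE; limma adjusted p = 0.425). Only PH3 Rat506 reached into the Air range.

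Genes with an unadjusted p under 0.01 whose PH3 arrays lay all above or all below the Air arrays were set side by side. Over all genes, 77 (0.573%) had every PH3 array above every Air array and 73 (0.543%) had every one below. With an unadjusted p under 0.01 as well, 15 genes were higher and 16 lower, and the 12 largest of each are named. None of them passed (limma adjusted p = 0.945 for each). The largest positive difference was at RT1-S3, an MHC class I gene with near-identical copies, so its reads may come from several. It read 7.51, 7.33, 7.52, 7.12 and 7.16 in Air and 7.70, 9.01, 8.08 and 9.23 in PH3, with Rat483 and Rat508 highest, and the difference was 1.17 ± 0.31 (SE). Its 3 other probe sets differed by 1.13 to 1.21 and were also free of overlap, and the brightest one stood at 0.93 without Rat508 and at 0.61 without Rat483, Rat508 and Rat485. Irgm, an interferon-induced GTPase, and Atf3, a stress-induced transcription factor, differed by 0.65 and 0.60. Irgm read 5.94, 5.82, 5.89, 5.79 and 5.71 in Air and 6.26, 6.09, 6.01 and 7.55 in PH3, where Rat508 stood apart, and the difference was 0.29 without it. Atf3 read 3.74, 3.37, 3.86, 3.61 and 3.53 in Air and 3.98, 4.97, 3.90 and 4.06 in PH3, where Rat483 was highest, and the difference was 0.36 without it. Cilp2, a cartilage matrix protein, differed by 0.75 and Lrrc15, a membrane protein of mesenchymal cells, by 0.47. Rat508 was highest in both, at 6.38 and 4.84, and without it they differed by 0.30 and 0.24; without all 3 rats Cilp2 was at 0.08. The others of the 12 were Met, the hepatocyte growth factor receptor (0.32), C19h1orf198 (0.31, and 0.18 without all 3), Cab39l (0.27), Notch2 (0.27), L3mbtl3 (0.27, and 0.15 without Rat508), Nup188 (0.25) and Fance (0.24). Met and Notch2 were dim, averaging 3.11 and 3.42 over the bulb arrays, against 2.89 for the called probe set. With Air arrays of all times as controls, Nup188 was at 0.13 and Fance at 0.06.

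Among the negative differences the largest was at Mapk10, the neuronal JNK3 kinase. It read 7.46, 7.77, 7.90, 7.56 and 7.56 in Air and 7.12, 6.75, 6.92 and 6.69 in PH3, all below Air, with a difference of -0.78 ± 0.19 (SE). A second probe set differed by -0.37, also with no overlap. Without Rat483, Rat508 and Rat485 the first stood at -0.57, and with Air arrays of all times as controls at -0.46. Rnf152, a ubiquitin ligase of lysosomes, read 5.97, 5.87, 5.67, 6.24 and 5.55 in Air and 5.43, 5.23, 5.30 and 4.99 in PH3. Slc18a2, the vesicular monoamine transporter, read 4.81, 4.78, 4.90, 4.36 and 4.54 in Air and 4.33, 4.19, 4.28 and 4.16 in PH3. Neither gene overlapped between groups; their differences were -0.62 and -0.44. Slc18a2 depended on the controls, at -0.06 with Air arrays of all times and -0.23 within Rat502 to Rat526, and its dimmer probe sets differed by -0.24 and 0.008 with overlap. The others of the 12 were Scel (-0.39), Fkbpl (-0.33), Cenps (-0.32), Tlcd3a (-0.32), Rp9 (-0.32, and 0.02 with Air arrays of all times), Zfp579 (-0.29), Stambpl1 (-0.24), Dexi (-0.23) and Zfpl1 (-0.23). Scel and Rp9 were dim, averaging 3.71 and 3.39 over the bulb arrays.

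**Figure D2:**
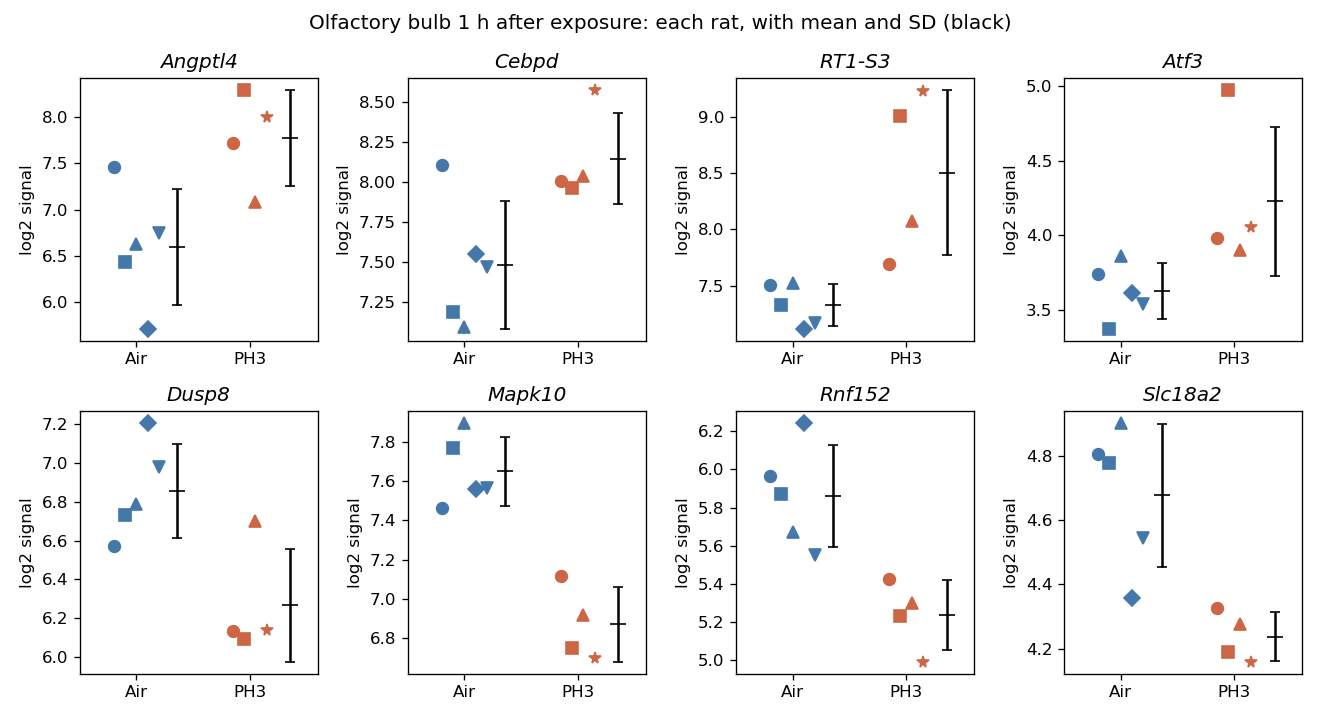
Log2 signal of 8 genes in each Air rat (blue) and PH3 rat (orange) at 1 h, with mean and SD in black. Angptl4, Cebpd and Dusp8 overlap between groups through single rats, while RT1-S3, Atf3, Mapk10, Rnf152 and Slc18a2 do not.

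The gene lists were compared by the count of their members above and below 0. No member of any of the 31 lists passed the adjusted p, against 0.00322% of probe sets called on the whole array. Among glucocorticoid receptor targets, 23 of 24 measured genes had a positive difference, with a median of 0.21; over all genes 49.6% were positive with a median of -0.00128. Members of a list vary together from rat to rat, so these counts are a description. Without Rat508, 22 of 24 were positive and the median was 0.21; without Rat483, Rat508 and Rat485 the counts were 16 positive with a median of 0.07. Besides Angptl4, the smallest p belonged to Cebpd, a CCAAT-binding transcription factor, at 0.67, with Htra1, a serine protease, at 0.33 (0.07 without Rat483, Rat508 and Rat485) and Tmem252, a membrane protein, at 0.67. The groups overlapped at Tmem252, and its difference was 1.17 within Rat472 to Rat491 and 0.22 within Rat502 to Rat526. Cebpd read 8.11, 7.18, 7.09, 7.55 and 7.47 in Air and 8.01, 7.97, 8.04 and 8.57 in PH3. Its difference was 0.34 with Air arrays of all times as controls. Air Rat472 alone lay within the PH3 range of Cebpd, and the list level of that Air rat, 8.19, was as high as those of PH3 Rat482, Rat483 and Rat508 (8.23, 8.12 and 8.08).

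Immediate early genes, which neurons switch on within minutes of strong activity, were split, with 12 of 23 positive and a median of 0.04, or 13 of 23 and 0.03 without Rat508. Arc, a synaptic protein gene, read 8.57, 7.28, 6.82, 9.05 and 8.18 in Air and 7.09, 7.10, 8.54 and 6.54 in PH3, so the groups overlapped, and its difference was -0.67, or -0.41 without Rat508. Later activity genes had 6 of 16 positive with a median of -0.09, but 9 of 16 and 0.01 without Rat508, so the direction turned on that array. Bdnf, a neurotrophin, differed by -0.53, or by -0.22 without Rat508 and -0.03 without Rat483, Rat508 and Rat485. A dimmer probe set of Bdnf ran from 4.44 to 5.33 in Air and from 4.70 to 5.23 in PH3. Plk2 differed by -0.30 and Inhba by -0.32, or -0.17 and -0.19 without all 3 rats.

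Cytochrome c oxidase subunits, the enzyme that phosphine blocks, had 2 of 12 positive with a median of -0.04, with and without Rat508. The other respiratory chain and ATP synthase subunits had 6 of 20 positive with a median of -0.03, with and without it. Cox5a differed by -0.27, but by 0.01 within Rat472 to Rat491 and 0.39 against Air arrays of all times, and Cox7a2l by -0.11. Genes of glycolysis and hypoxia had 12 of 27 positive, with and without Rat508, with Slc2a1, the glucose transporter of vessels and glia, at 0.30 (0.14 without all 3 rats) and Ankrd37, a hypoxia-inducible gene, at -0.29. Aldoc, an aldolase of astrocytes, differed by 0.20 (0.12 without all 3) with every PH3 array above every Air array.

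Metallothioneins and zinc transporters had 6 of 10 positive with a median of 0.15, which was 0.05 without Rat508 and -0.01 without all 3 rats. Mt2A, which metals and glucocorticoid induce, differed by 0.18, or by -0.06 without all 3. NRF2 targets and antioxidant enzymes had 10 of 18 positive with a median of 0.04, and 7 of 18 with -0.02 without Rat508. Sod3, the extracellular superoxide dismutase, differed by 0.41 and Slc7a11, the cystine carrier, by 0.40; Rat508 was highest in both, at 9.11 and 10.7, and without it they differed by 0.22 and 0.24. Hmox1, heme oxygenase, differed by 0.35, or 0.12 without all 3 rats. ATF4 targets, genes of the amino acid stress response, had 18 of 27 positive with a median of 0.07, or 10 of 27 and -0.02 without all 3 rats. Heat shock and ER chaperone genes had 9 of 24 positive with a median of -0.02, or 9 of 24 and -0.04 without Rat508, and Dnajb1, an Hsp70 partner, differed by -0.17 with no overlap.

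Acute inflammation genes had 18 of 25 positive with a median of 0.06, or 17 of 25 without Rat508. Cxcl10, a chemokine that interferon induces, read 4.18, 4.04, 4.78, 4.40 and 4.37 in Air and 4.49, 5.01, 4.67 and 8.61 in PH3. Only Rat508 was far from the rest, and the difference of 1.34 became 0.37 without it. Isg15 and Mx1, further interferon-induced genes, read 9.03 and 7.32 in the same rat, against at most 6.67 and 4.55 in all others. Socs3, a feedback inhibitor of cytokine signals, differed by 0.20 with no overlap (0.13 without Rat508), and Zfp36, an mRNA decay factor, by 0.53 (0.26 without all 3 rats).

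Potassium channel genes had 3 of 16 positive with a median of -0.15, or 4 of 16 and -0.06 without Rat508. GABA and glutamate receptor subunits had 7 of 19 positive with a median of -0.06, or 10 of 19 and 0.01 without Rat508. Gabra2, a GABA-A receptor subunit, differed by -0.55, or -0.33 without Rat508. Circadian clock genes had 7 of 18 positive, and 8 of 18 without it.

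Markers of other cell types moved with the groups in part. All 10 meningeal and fibroblast markers had a positive difference, with a median of 0.52, and the list level ran from 8.08 to 8.64 in Air and from 8.14 to 9.97 in PH3. Ogn, a matrix protein of meninges, read 8.50, 8.64, 7.88, 9.34 and 9.07 in Air and 10.01, 9.17, 9.04 and 10.74 in PH3, and Col1a1, type I collagen, reached 10.40 in Rat483 and 11.43 in Rat508 against at most 8.24 in Air. Without Rat508, 8 of 10 were positive with a median of 0.06, and without Rat483, Rat508 and Rat485, 4 of 10 with a median of -0.07. Mural cell markers had 7 of 8 positive with a median of 0.26 and 5 of 8 with 0.07 without Rat508. Ensheathing glia markers had 7 of 7 positive with a median of 0.26, 7 of 7 with 0.12 without Rat508 and 4 of 7 with 0.02 without all 3 rats. Olfactory epithelium markers had 6 of 7 positive, 3 of 7 without Rat508 and 0 of 7 without all 3. The last fit kept Air Rat472 and Rat484, whose levels of this list were 6.43 and 6.26. PH3 Rat482 and Rat506, the PH3 arrays left, were at 5.63 and 5.64. In the opposite direction, all 7 markers of cortical projection neurons were negative, with a median of -0.27, and 0 of 7 were positive without Rat508 and 2 of 7 without all 3. Oligodendrocyte markers had 1 of 9 positive with a median of -0.19 and 4 of 9 with -0.05 without that rat, and 7 of 9 with 0.07 without all 3. Markers of mitral and tufted cells had 3 of 7 positive with a median of -0.00465, and granule cell and interneuron markers had 7 of 11 with 0.04. Periglomerular and dopaminergic markers had 6 of 9 positive (4 without Rat508), neuroblast markers 1 of 7 (3 without), astrocyte markers 5 of 7 (4 without) and brain stem neuron markers 3 of 9 (4 without). Microglia markers had 7 of 9 positive (2 without Rat508), endothelial markers 9 of 11 (3 without), choroid plexus markers 4 of 5 (1 without), red cell markers 6 of 7 (5 without) and neutrophil markers 6 of 6 (4 without). The share of these marker differences in the gene differences above was not tested.

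**Figure D3:**
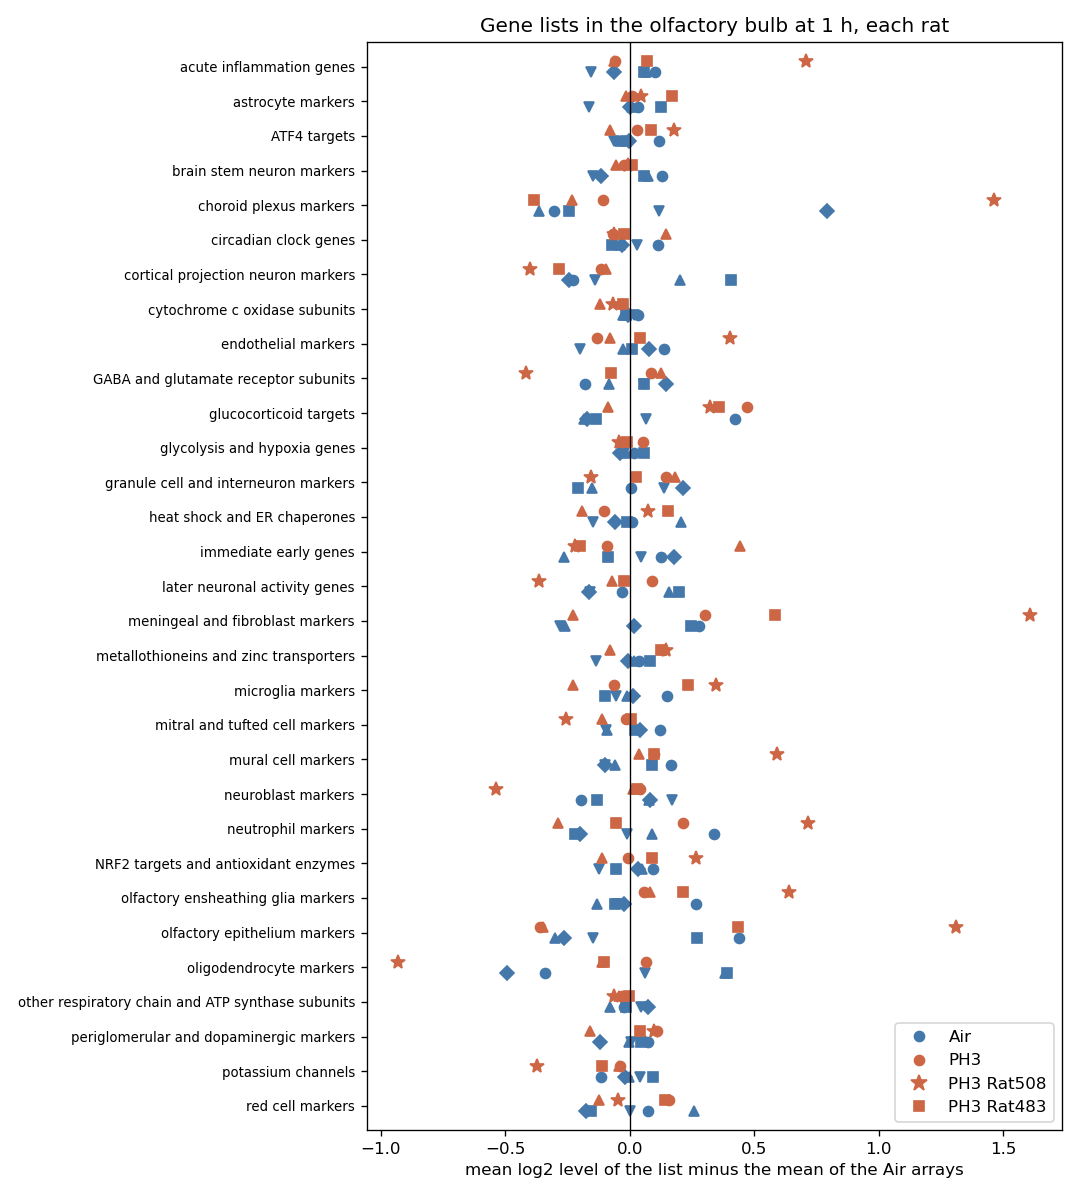
Mean log2 level of each gene list in each rat minus the mean of the 5 Air arrays (x axis), Air in blue and PH3 in orange, with Rat508 as a star and Rat483 as a square. Rat508 lies farthest from 0 in the meningeal, mural, olfactory epithelium and oligodendrocyte lists, while the glucocorticoid target level is low in PH3 Rat506 and high in Air Rat472.

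Brain stem taken at the same time after the same exposure was set beside the bulb. In brain stem 95 of 31042 probe sets (0.306%) passed the adjusted p, 59 higher and 36 lower, and 51.6% of genes were positive. None of the 95 was called in the bulb, and 6 had an unadjusted p under 0.05 there, where 5.15% of all probe sets did. In the bulb 49.6% of all genes were positive. Of the 59 higher in brain stem, 47 were also positive in the bulb, with a median of 0.13 against 0.71 in brain stem; of the 36 lower, 20 were negative in the bulb, with a median of -0.03 against -0.70. Cell type markers differed in part between the brain stem groups too, with no marker called. Positive were 0 of 10 meningeal and fibroblast markers (median -0.48), 1 of 8 mural (-0.32) and 1 of 11 endothelial markers (-0.27). Brain stem neuron markers had 8 of 9 positive (0.28), oligodendrocyte markers 8 of 9 (0.01) and astrocyte markers 1 of 7 (-0.05). Their share in the brain stem calls was not tested. The brain stem animals (Rat343 to Rat357) were other rats than those of the bulb, so tissue and animal set cannot be told apart.

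The effect of PH3 differed between the tissues at 4 probe sets of 3 genes that passed the test of the difference itself, 0.0129% called, all lower in the bulb. Pcdh20, a protocadherin adhesion protein of neurons, rose by 1.31 in brain stem (adjusted p = 4.9e-04), where PH3 rats read 8.28 to 8.70 and Air rats 6.83 to 7.44. In the bulb it read 9.33, 9.52, 9.35, 9.98 and 9.46 in Air and 8.99, 9.02, 9.66 and 9.12 in PH3, a difference of -0.33 ± 0.17 (SE; 95% interval -0.68 to 0.01). The effects differed by -1.65 ± 0.25 (SE; limma adjusted p = 9.8e-04), and by -1.36 at a second probe set (adjusted p = 0.0239). The second call was lost without PH3 Rat483 or Rat508, Air Rat507 or Rat509, or brain stem Rat343, Rat352, Rat353 or Rat357. The first held in all 17 fits that left out 1 array, but not in the fit of the 1 h groups alone or without Rat483, Rat508 and Rat485 (adjusted p = 0.0849). A dimmer probe set of Pdk4, the kinase that shuts pyruvate dehydrogenase, rose by 1.45 in brain stem and differed by 0.13 in the bulb (difference -1.32, adjusted p = 0.0239); its brighter probe set had an adjusted p of 0.0859 for the difference. The Pdk4 call was lost without Air Rat485 or Rat507, PH3 Rat508, or brain stem Rat343, Rat350, Rat352 or Rat353. Gadd45g, a growth arrest and DNA damage gene, rose by 1.16 in brain stem and differed by -0.09 in the bulb (difference -1.26, adjusted p = 0.0377), and its call held in 5 of 17 fits that left out 1 array, those without Air Rat472, PH3 Rat482 or brain stem Rat350, Rat351 or Rat354.

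**Figure D4:**
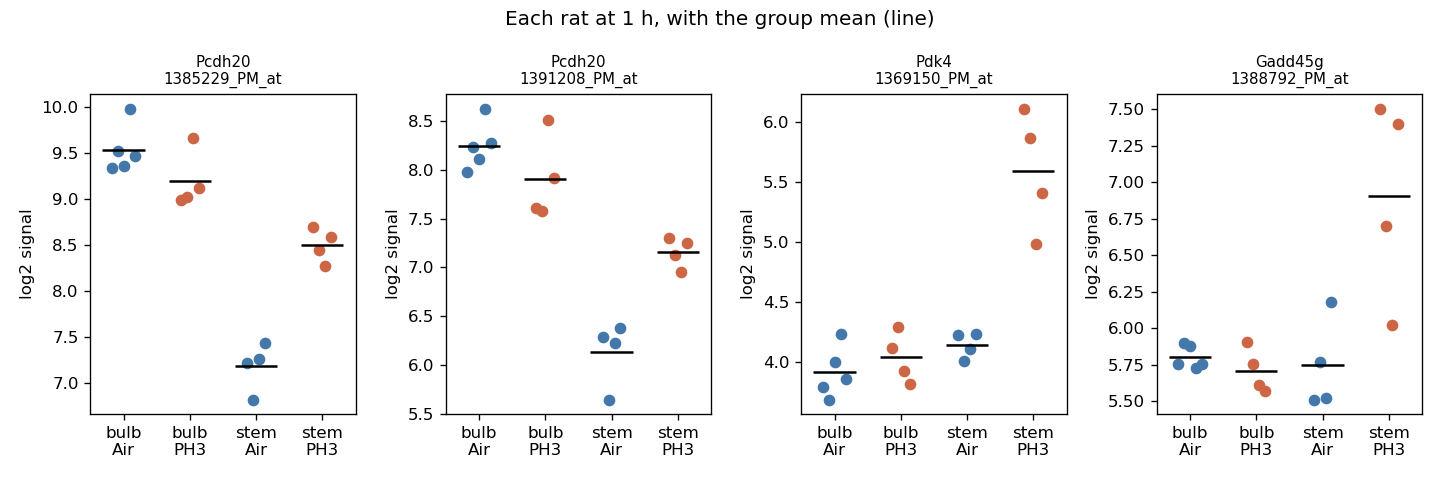
Log2 signal of 4 probe sets in each rat of the bulb and brain stem at 1 h, Air in blue and PH3 in orange, with the group mean as a line. In brain stem the PH3 rats lie above the Air rats for Pcdh20 and Pdk4, and in the bulb the groups overlap.

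The promoter windows of Angptl4, the named gene with the smallest p in the bulb, and of Pcdh20, Pdk4 and Gadd45g, whose effects differed between the tissues, are shown because these genes carry the comparison. Each runs from 250 bases before to 50 bases after the RefSeq gene start, written 5′ to 3′, and capitals mark TATAAA on either strand (TATAAA or TTTATA, which overlap in Angptl4) and the palindrome CACGTG. Among 33469 rat promoter windows, TATAAA occurred in 14.2% and CACGTG in 6.42%.
Angptl4 promoter window, chr7:15258632-15258931, minus strand, GRCr8: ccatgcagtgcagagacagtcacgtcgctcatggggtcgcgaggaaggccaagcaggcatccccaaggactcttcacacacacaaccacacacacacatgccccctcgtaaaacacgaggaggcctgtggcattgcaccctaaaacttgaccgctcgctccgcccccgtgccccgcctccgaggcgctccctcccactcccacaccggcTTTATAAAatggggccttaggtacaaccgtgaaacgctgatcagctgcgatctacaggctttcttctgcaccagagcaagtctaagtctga
Pcdh20 promoter window, chr15:70840249-70840548, minus strand, GRCr8: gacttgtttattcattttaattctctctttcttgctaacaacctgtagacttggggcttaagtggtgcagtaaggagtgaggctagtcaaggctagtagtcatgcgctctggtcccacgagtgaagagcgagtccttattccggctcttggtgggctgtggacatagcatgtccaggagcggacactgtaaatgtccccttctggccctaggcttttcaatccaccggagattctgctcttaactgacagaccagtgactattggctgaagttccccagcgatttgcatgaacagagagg
Pdk4 promoter window, chr4:34568280-34568579, minus strand, GRCr8: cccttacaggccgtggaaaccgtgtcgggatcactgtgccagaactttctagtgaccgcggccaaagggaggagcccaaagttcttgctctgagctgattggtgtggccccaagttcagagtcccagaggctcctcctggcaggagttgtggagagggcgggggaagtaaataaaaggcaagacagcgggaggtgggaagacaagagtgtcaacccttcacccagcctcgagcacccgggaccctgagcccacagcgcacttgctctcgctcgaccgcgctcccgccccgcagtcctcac
Gadd45g promoter window, chr17:13530302-13530601, minus strand, GRCr8: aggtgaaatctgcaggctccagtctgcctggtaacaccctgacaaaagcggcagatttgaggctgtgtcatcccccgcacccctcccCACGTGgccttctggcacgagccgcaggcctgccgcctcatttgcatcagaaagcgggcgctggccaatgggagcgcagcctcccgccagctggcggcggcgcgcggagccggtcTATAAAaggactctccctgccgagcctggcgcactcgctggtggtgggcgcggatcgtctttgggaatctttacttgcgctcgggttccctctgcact
Angptl4 had TATAAA 39 bases before its start and Gadd45g 48 bases before, and Gadd45g also had CACGTG 163 bases before. The windows of Pcdh20 and Pdk4 held neither. TGTTCT, the hexamer repeated in the glucocorticoid response element, was searched on both strands and was in none of the 4, while it occurred in 20.7% of all windows.

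Within the glucocorticoid targets the 2 tissues could be set side by side gene by gene. The list median was 0.72 in brain stem, where 13 of 24 members rose, and 0.21 in the bulb, where none passed. Of all probe sets, 0.306% were called in brain stem. Tmem252 rose by 2.37 in brain stem and differed by 0.67 in the bulb. Sgk1, a kinase that regulates ion channels, rose by 1.93 in brain stem and read 9.25, 8.81, 8.66, 8.29 and 9.17 in bulb Air rats and 9.81, 9.11, 8.91 and 9.15 in bulb PH3 rats, a difference of 0.41 with overlap. Nfkbia, the inhibitor of NF-κB, was at 1.29 and 0.30 (0.03 in the bulb with Air arrays of all times as controls). Fkbp5, a chaperone of the glucocorticoid receptor, was at 1.17 and 0.06 (95% interval -0.50 to 0.62). Angptl4 was the other way round, at 0.70 in brain stem and 1.17 in the bulb, and the difference between these effects did not pass (limma adjusted p = 0.873). Taken by their brightest probe set, the 4 genes with the largest falls in brain stem had smaller point estimates in the bulb, with Cxcr4, a chemokine receptor, at -1.28 and 0.19, Car4, a carbonic anhydrase of capillaries, at -0.90 and -0.17, Tlr2 at -0.79 and -0.02, and Tnfrsf11b at -1.53 and -0.34. Cxcr4 was at -0.06 in the bulb without Rat508. A pair of dimmer probe sets of Sox2, a neural stem cell factor, were at -0.92 and -0.84 in brain stem and at -0.20 and -0.26 in the bulb. None of these differences between tissues passed, nor did those of Tmem252, Sgk1, Nfkbia and Fkbp5.

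**Figure D5:**
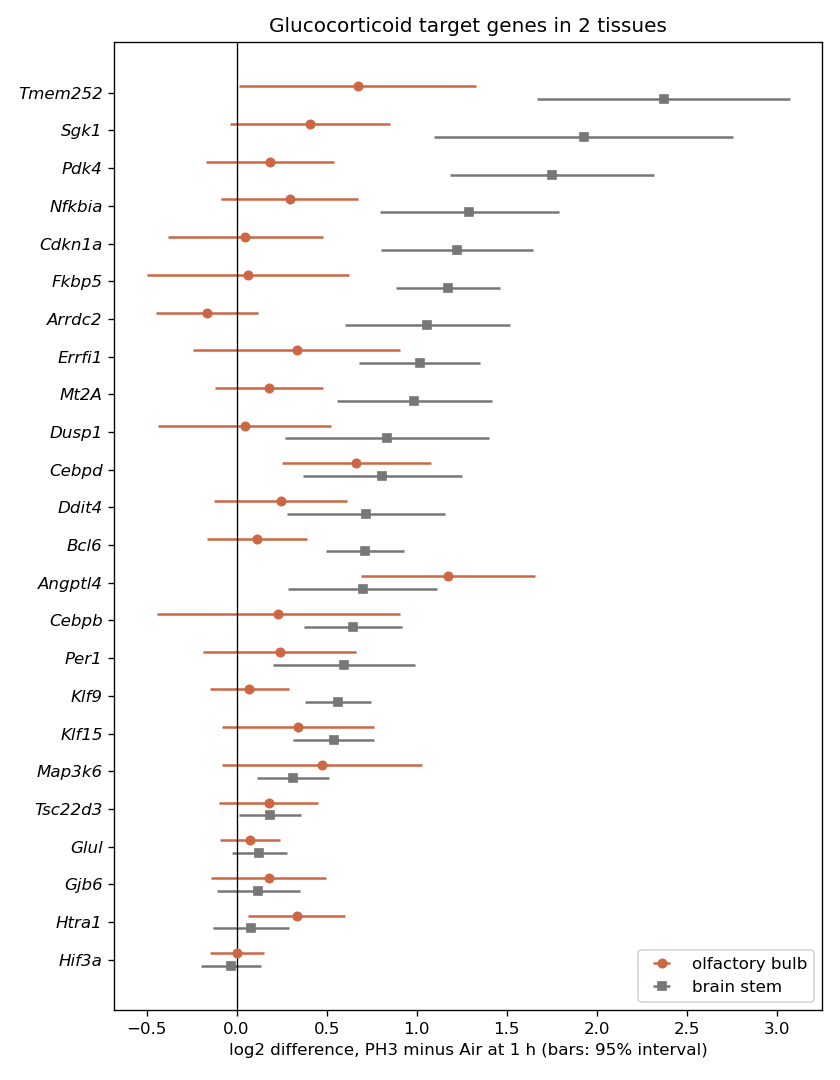
Log2 difference of PH3 minus Air at 1 h for 24 glucocorticoid target genes, in the olfactory bulb (orange circles) and brain stem (grey squares), with 95% intervals. Sgk1, Tmem252, Pdk4 and Fkbp5 lie far to the right in brain stem and near 0 to 0.67 in the bulb.

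Set against the later bulb arrays, 0 of 31042 probe sets had an effect at 1 h that differed from the mean effect at 3, 6 and 24 h (limma, smallest adjusted p = 0.248; 1354 at an unadjusted p under 0.05). No probe set was called at 3, 6 or 24 h in the bulb either, with 2351, 3055 and 1271 at an unadjusted p under 0.05. Angptl4 differed by 0.81 at 3 h, 0.04 at 6 h and -0.46 at 24 h, after 1.17 at 1 h. RT1-S3 differed by 0.26, 0.19 and 0.54 at those times, and Mapk10 by 0.38, 0.01 and 0.36.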

How the data were processed

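RNA was hybridised to Affymetrix rat arrays after 3′ in vitro transcription, per the labels' protocols. The deposited table holds log2 intensities from RMA as run by the authors; the submitters' processing notes name Partek. Versions, and the set of arrays normalized together, were not stated in the labels. RMA sets arrays to one distribution, which removes a shift of all genes. After 97 control probe sets were left out, 31042 were fitted in limma 3.58.1 (R 4.3.3) with 1 coefficient per group over the 33 bulb arrays of 8 groups, and the 32 brain stem arrays for the tissue comparison, with Benjamini-Hochberg adjustment at 0.05. Of these, 19063 name 1 gene (13438 genes, brightest probe set used), 572 several and 11407 none; names come from GEO's platform annotation, updated by gene ID. The code was tested on simulated data. Named genes were those called, the 12 largest each way among those with p under 0.01 and no overlap, up to 4 per list by p, and the largest brain stem calls. The comparison, taken by sample titles, and the gene lists were chosen with earlier results of these data known. The number of arrays limits the precision. The 3′ index, the 3′ minus 5′ signal of control probe sets, was 0.516 ± 0.0597 (SD, n = 5) in Air and 0.493 ± 0.0696 (SD, n = 4) in PH3 (exact permutation test, two-sided, p = 0.571). Promoters come from RefSeq, GRCr8. Alternatives are listed in the closing section.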

Additional observations from a re-analysis of the deposited data

Results flagged for a closer look

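In 374 groups of 4 or 5 values, made of named genes, gene lists and the 3′ index, the highest or lowest array stood apart from the others 32 times by Dixon's ratio, or 8.56%, where chance gives about 1 in 20; the groups share arrays and are not independent. In Air Rat485, lowest was Cilp2 at 3.91 (next value 4.31). In Air Rat507, highest was Pcdh20 at 9.98 (next value 9.52); lowest was Lrrc15 at 3.42 (next value 3.71). In Air Rat509, highest was Fkbpl at 6.79 (next value 6.54). In Air Rat472, highest were Slc7a11 at 10.40 (next value 9.75), Sox10 at 7.18 (next value 6.93), Npy at 12.33 (next value 11.77), Frzb at 11.32 (next value 10.89), Nfkbia at 8.61 (next value 7.83) and the mean level of olfactory ensheathing glia markers at 9.69 (next value 9.40); lowest was Camk2a at 10.79 (next value 11.11). In PH3 Rat508, highest were Irgm at 7.55 (next value 6.26), L3mbtl3 at 7.11 (next value 6.66), Scel at 3.67 (next value 3.47), Cebpd at 8.57 (next value 8.04), Cxcl10 at 8.61 (next value 5.01), Pdgfrb at 6.01 (next value 5.18), Folr1 at 4.53 (next value 3.30), the mean level of choroid plexus markers at 5.45 (next value 3.88) and the mean level of mural cell markers at 6.49 (next value 6.00); lowest were Sox11 at 6.44 (next value 7.39), Ermn at 5.72 (next value 6.94), Mobp at 9.89 (next value 11.10), Mog at 6.82 (next value 8.12) and the mean level of neuroblast markers at 8.19 (next value 8.74). In PH3 Rat483, highest were Atf3 at 4.97 (next value 4.06) and Gdf15 at 3.77 (next value 3.20). In PH3 Rat506, highest were Fosl1 at 3.75 (next value 3.44), Inhba at 7.07 (next value 6.40) and Kcna4 at 8.21 (next value 7.47); lowest were Cox6b1 at 11.27 (next value 11.40) and the mean level of metallothioneins and zinc transporters at 7.72 (next value 7.93). 
The effect of PH3 differed between bulb and brain stem, by the test of the difference itself (limma). The differences were at Pcdh20 (-1.65 and -1.36 at its 2 probe sets), Pdk4 (-1.32) and Gadd45g (-1.26). At 1 h the rats of the 2 tissues were different animals. Some rats of the later times gave arrays of both tissues to this fit, which had no term for rat.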

How the results depend on the processing

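No paired analysis was possible because the PH3 and Air rats carry different numbers and none gave an array in both groups. The 1 call of the bulb became 0 with the 1 h groups alone, the brighter 50% of probe sets, rat number range as a block, either number range alone, Air arrays of all times as controls, and, all chosen after seeing the data, without arrays that stand apart, without Rat483, Rat508 and Rat485, with the meningeal marker level, or with cortical and oligodendrocyte marker levels as covariates. Leaving out 1 rat gave 0 to 3 calls: 1 without Air Rat472 (Angptl4) and 3 without PH3 Rat506. The later comparison gave 0 to 1 when 1 rat was left out. The tissue comparison gave 4 calls, 5 with unequal variances, 0 with 1 h groups alone and 0 without Rat483, Rat508 and Rat485; leaving out 1 array gave 1 to 20, the highest without PH3 Rat482, and 11 without brain stem Rat351. Brain stem had 95 calls, and 18 with 1 h groups alone. The 3′ index difference ran from -0.0459 to 0.00171, positive without PH3 Rat483. Of 372 recomputed list medians 13 moved by more than 1 SD, and 3403 of 3522 gene differences kept their sign. The cause of these changes was not tested. The limit of this design is its 9 arrays: the median standard error was 0.107, on the log2 scale.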

Other observations

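The following values belong to no comparison above and were chosen after they were seen. Transthyretin, Ttr, the main secreted protein of choroid plexus, read 11.85 in PH3 Rat508 and at most 10.14 in the other 1 h arrays, whose mean was 5.96. Further genes of interferon response stood at their highest in the same rat, with Ifit3 at 6.88 (at most 4.67 elsewhere) and Cxcl11 at 6.86 (at most 4.27 elsewhere). Thyrotropin beta, Tshb, and the glycoprotein hormone alpha chain, Cga, read 11.38 and 12.04 in Air Rat485 and at most 2.83 and 3.58 in the other 8 arrays. The secretoglobin Scgb1c1, an abundant transcript of nasal mucosa, ran from 5.50 to 10.45 in Air and from 4.76 to 11.38 in PH3.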
